A study of Mus musculus with 8 samples.

Results

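The 39 genes described here carry fatty acids from the blood into the heart muscle cell, activate them, move them into mitochondria and oxidise them, together with the enzymes that release stored fat and use ketone bodies. They were chosen by gene name and sorted by step into 7 uptake genes, 4 activation and thioesterase genes, 6 genes of the carnitine shuttle and malonyl-CoA, 12 beta-oxidation genes, 3 genes of the electron transfer flavoprotein, 3 lipolysis genes, 3 ketone body genes and Pdk4. All 39 were among the 11704 genes listed, and 38 of them were among the 10025 genes tested, those with a mean of at least 1 FPKM (fragments divided by transcript length and by the library's total). Each of the 38 had a mean of at least 1 FPKM in both groups, and Angptl4 was the member below the limit.

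RNA from whole mouse hearts was sequenced in 2 groups of 4. Neonatal mice received a subcutaneous injection of adeno-associated virus serotype 9, either with the mouse Fgf17 gene, a secreted fibroblast growth factor (AAV-FGF17), or as the control vector, and hearts were taken at 8 to 10 weeks of age. All 8 hearts had thus received a vector, and no group without a vector was analysed here. The strain, the sex, the vector dose, the promoter driving Fgf17 and the content of the control vector are not given in the sources used here. The column names call all 8 libraries sham, while the sample labels speak only of transduction, so whether the animals had surgery is not known.

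The adult heart draws most of its energy from long-chain fatty acids. Lipoprotein lipase frees them from circulating triglyceride, CD36 and fatty acid-binding proteins carry them inward, acyl-CoA synthetases activate them, and the carnitine palmitoyltransferases pass them into the mitochondrion, where beta-oxidation shortens them in repeated rounds of dehydrogenation, hydration, dehydrogenation and thiolysis. Many of these genes are known targets of the nuclear receptor PPAR-alpha, which binds DNA as a pair with a retinoid X receptor at repeats of the letters AGGTCA.

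Promoter sequences are shown for 3 members with a well-known place in this programme, because the groups did not overlap in these genes, and for the shared start region of the subunits of the trifunctional protein. All 3 hold AGGTCA, and the other members whose groups did not overlap, Acacb, Acads and Acat1, are not shown. The 3 were picked after their values were seen, so their AGGTCA matches are not a result about the change. After each library was rescaled by its sum without mitochondrially encoded genes, the groups overlapped in these 3 but not in Acads and Acacb. A window of 250 bases before to 50 bases after the start was found in RefSeq, on GRCm38.p6, for 29 of the 39 members, in 35 windows. AGGTCA, read on either strand, lay in a window of 7 members, Acacb, Acadm, Acadvl, Cd36, Cpt1a, Echs1 and Plin5, and in 16.3% of all 32851 mouse windows. A pair of AGGTCA with any 1 base between them lay in 0 member windows and in 0.0396% of all windows, and TCAAGGTCA, which contains AGGTCA, lay in 0 member windows and in 0.423%. GGGCGG was present in windows of 20 members and in 35.7% of all windows, and CCAAT in windows of 15 members and in 37.4%. These are matches of letters within short windows. A member counts once if any of its windows matches, while the percentages are per window, so these counts and percentages are not like for like. Below, each sequence runs 5′ to 3′ on the gene's strand over the 250 bases before the RefSeq start, with AGGTCA or its reverse complement TGACCT in capitals.
Acadm, chr3:153944644-153944893, minus strand: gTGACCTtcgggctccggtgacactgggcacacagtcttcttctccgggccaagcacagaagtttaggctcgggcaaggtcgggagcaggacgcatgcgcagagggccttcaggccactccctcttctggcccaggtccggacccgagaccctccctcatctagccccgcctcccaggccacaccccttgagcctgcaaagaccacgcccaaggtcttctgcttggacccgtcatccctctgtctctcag
Acadvl, chr11:70015429-70015678, minus strand: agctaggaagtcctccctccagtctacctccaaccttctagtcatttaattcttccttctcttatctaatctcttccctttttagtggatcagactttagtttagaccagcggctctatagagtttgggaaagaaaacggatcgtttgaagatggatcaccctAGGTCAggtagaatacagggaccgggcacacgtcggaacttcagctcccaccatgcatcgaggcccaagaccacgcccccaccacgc
Cd36, chr5:17835897-17836146, minus strand: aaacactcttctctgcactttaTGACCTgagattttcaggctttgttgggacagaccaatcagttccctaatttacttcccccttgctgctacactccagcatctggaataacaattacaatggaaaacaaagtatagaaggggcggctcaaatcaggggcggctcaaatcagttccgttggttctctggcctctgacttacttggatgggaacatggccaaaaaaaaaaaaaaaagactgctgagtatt
The match began 249 bases before the start in Acadm, 87 bases before it in Acadvl and 228 bases before it in Cd36. The Cd36 window lies inside the listed gene, chr5:17781690-17888801, so this RefSeq start is not the outermost start of Cd36. Hadha, on the minus strand from 30155162 of chromosome 5, and Hadhb, on the plus strand from 30155248, point away from each other, and the 85 bases between their starts are given on the plus strand with GGGCGG in capitals.
Hadha to Hadhb, chr5:30155163-30155247, plus strand: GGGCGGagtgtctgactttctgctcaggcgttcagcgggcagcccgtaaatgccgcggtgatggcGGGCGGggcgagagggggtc

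Fgf17 stood at 90.8, 173, 69.0 and 123 FPKM in AAV-FGF17 hearts 1 to 4 and at 9.59, 1.43, 0.560 and 9.86 FPKM in control hearts 1 to 4. Control libraries 2 and 3 stood apart from the other 6. Transcripts encoded by the mitochondrial genome held 44.5% and 30.9% of the summed FPKM in these libraries and 62.8% to 66.9% in the others, and on a first principal component with 49.7% of the variance they scored 22.0 and 44.6 against -19.4 to -7.55. FPKM divides by the whole library, so nuclear genes read higher where mitochondrial transcripts are fewer. The log2 changes below are therefore given with and without these libraries. Leaving them out keeps only control libraries 1 and 4, which had the higher Fgf17 values of the controls, 9.59 and 9.86 FPKM. A change without control libraries 2 and 3 is thus a second reading and not a cleaner estimate. Control libraries 1 and 4 were the closest of the 28 pairs of libraries in the members, with a median absolute log2 difference of 0.040 and 33 of 38 members within 10% of each other. The next pair, AAV-FGF17 library 3 and control library 1, followed at 0.045. Marker genes of the ventricular muscle were abundant in all 8 libraries, so the libraries hold the labelled tissue by these markers.

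No member passed the test for a difference between AAV-FGF17 and control hearts. With limma and Benjamini-Hochberg adjustment over all 10025 genes at 0.05, 0 members were called higher and 0 lower, where 0.00% of all genes were called in either direction, and the members' adjusted p ran from 0.495 to 0.988. At an unadjusted p under 0.05 in limma, 0 members were higher, against 1.36% of all genes, and 3 were lower, Acacb, Acads and Acadvl, against 7.98%. The share of 3 in 38 lies near that background. The median of all genes was itself shifted by -0.12 on the log2 scale, so each log2 change below is AAV-FGF17 over control on log2(FPKM + 1), relative to that median gene, while each p tests the change before that shift. Relative to the median gene, 25 of 38 members were lower, against 50.0% of all genes, with a member median of -0.09 and quartiles of -0.18 and 0.01. The quartiles of all genes lay at -0.14 and 0.14. Without control libraries 2 and 3, 19 members lay below the median gene and 19 above, and their median was 0.00.

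**Figure D1:**
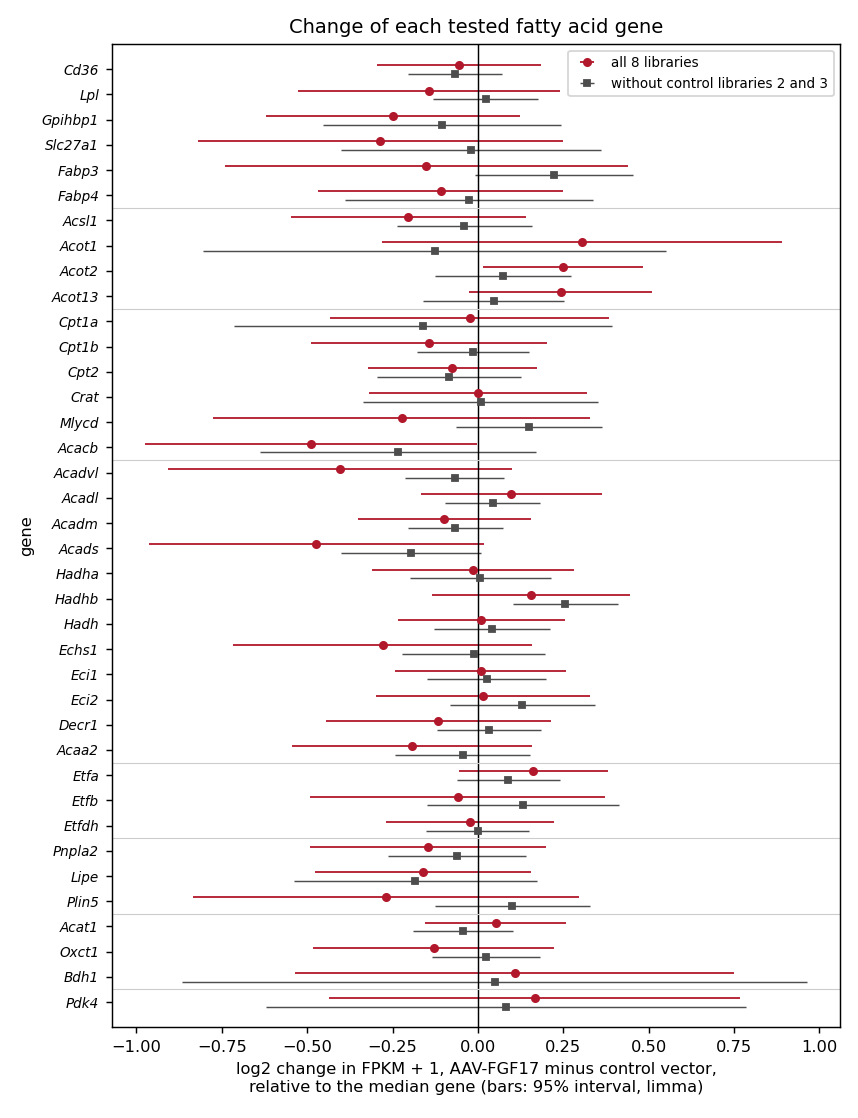
Log2 change of each tested member (AAV-FGF17 over control on log2(FPKM + 1), relative to the median gene), ordered by step, with 95% intervals from limma. Round points use all 8 libraries and square points leave out control libraries 2 and 3. The member median moves from -0.09 to 0.00 between the sets, and no member passed limma's test at an adjusted p under 0.05.

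In 6 members every AAV-FGF17 heart lay below every control heart: Cd36, Acacb, Acadvl, Acadm, Acads and Acat1, against 4.64% of all tested genes. No member had every AAV-FGF17 heart above every control heart, against 0.998%. When each library was rescaled by its sum without mitochondrially encoded genes, 2 of the 6, Acads and Acacb, still did not overlap, against 2.13% of genes, and Hadhb lay higher in every AAV-FGF17 heart, against 2.60%. The margin in Hadhb was very small, with 81.80 in AAV-FGF17 heart 3 against 81.78 in control heart 2. Leaving out control libraries 2 and 3 keeps all 6, since removing samples cannot create an overlap, with a background of 9.39%, and adds 3 higher members, Fabp3, Hadhb and Mlycd, with a background of 6.33%.

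**Figure D2:**
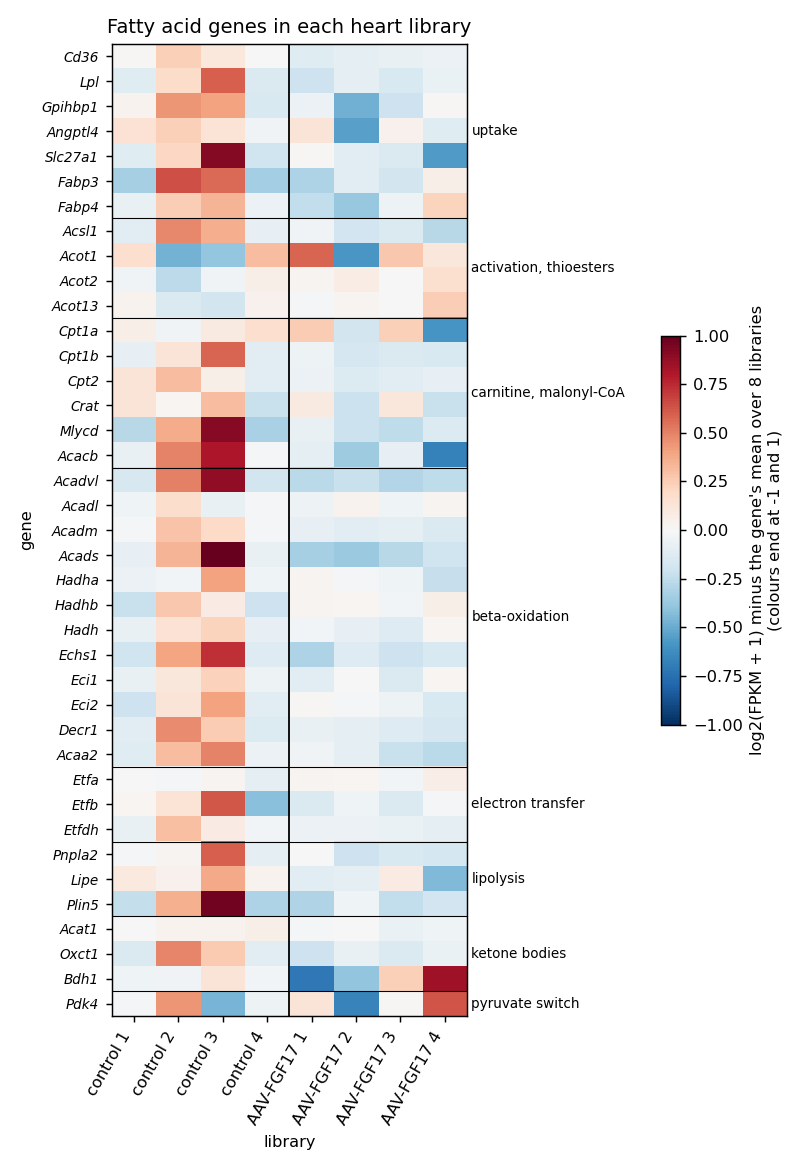
Colours give log2(FPKM + 1) of each of the 39 members (rows, ordered by step) in each of the 8 libraries (columns), minus the gene's mean over the libraries. Control libraries 2 and 3 were the 2 highest in 25 of the 39 members, and the columns of control libraries 1 and 4 lie close to those of the AAV-FGF17 libraries.

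The values of lipoprotein lipase and its partners overlapped between the groups. Lpl, the enzyme that splits triglyceride on the vessel wall, stood at 327.7, 355.5, 340.1 and 361.9 FPKM in AAV-FGF17 hearts 1 to 4 and at 348, 430.6, 575.3 and 343.2 FPKM in control hearts 1 to 4. Control hearts 1 and 4 lay inside the AAV-FGF17 range and control hearts 2 and 3 above it. Gpihbp1, the endothelial protein that anchors lipoprotein lipase in the capillary, was at 12.4, 9.03, 11.1 and 13.1 FPKM in AAV-FGF17 hearts and at 13.3, 18.0, 17.5 and 11.6 FPKM in controls, with means of 11.4 ± 1.79 and 15.1 ± 3.14 (SD, n = 4 each). Only control heart 4 lay inside the AAV-FGF17 range of Gpihbp1. The log2 change of Gpihbp1 was -0.25 with a 95% interval from -0.62 to 0.12 and a limma adjusted p of 0.495, and it was -0.11 without control libraries 2 and 3. Angptl4, an inhibitor of lipoprotein lipase, was below 1 FPKM in every heart, at 0.517 ± 0.292 FPKM in AAV-FGF17 and 0.773 ± 0.137 FPKM in control hearts. Its lowest value was 0.117 FPKM in AAV-FGF17 heart 2, and the groups overlapped.

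Among the carriers, Cd36 was the member of this step whose groups did not overlap. Cd36, the main fatty acid translocase of the muscle membrane, read 233.1, 237.9, 241.3 and 243.3 FPKM in AAV-FGF17 hearts and 255.7, 299.9, 272.7 and 252.5 FPKM in control hearts. The gap between the highest AAV-FGF17 heart and the lowest control heart was small next to the spread of the controls. The means were 239 ± 4.47 and 270.2 ± 21.7 FPKM, and the log2 change was -0.06, with an interval from -0.30 to 0.19 and a limma adjusted p of 0.507. Without control libraries 2 and 3 the change was -0.07. Slc27a1, a fatty acid transport protein with acyl-CoA synthetase activity, was at 9.44, 8.56, 8.35 and 5.98 FPKM against 8.48, 10.95, 18.5 and 8.02 FPKM. The high value was control heart 3, and the log2 change of -0.29 (interval -0.82 to 0.25, limma adjusted p = 0.502) was -0.02 without control libraries 2 and 3.

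Fabp3, the heart fatty acid-binding protein of the cytosol, was the most abundant member, with 40.3% to 52.1% of the members' summed FPKM. Its values were 2778, 3180, 3032 and 3585 FPKM in AAV-FGF17 hearts and 2732, 5371, 5087 and 2711 FPKM in control hearts. Control hearts 1 and 4 were the lowest of the 8 and control hearts 2 and 3 the highest. The log2 change was -0.15 (interval -0.74 to 0.44, limma adjusted p = 0.628) with all libraries and 0.22 without control libraries 2 and 3, so its direction turned. Of the 75-base windows of Fabp3, 24.3% also occur in transcripts of Fabp3-ps1, so its level is uncertain. Fabp4, the binding protein of capillary endothelium and fat cells, ranged from 121.7 to 184.6 FPKM in AAV-FGF17 and from 150.4 to 200.1 FPKM in control hearts. In FPKM, a per-length scale, Fabp4 stood at 0.0383 to 0.0515 of Fabp3 in AAV-FGF17 hearts and at 0.0350 to 0.0560 in controls. In whole tissue, fewer cells of a type and less RNA per cell cannot be told apart.

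In the activation step, 3 of 4 members lay above the median gene, by a median of 0.25 that became 0.00 without control libraries 2 and 3. Acsl1, the main long-chain acyl-CoA synthetase of the heart, read 71.0, 63.7, 65.9 and 59.9 FPKM in AAV-FGF17 hearts and 67.1, 102.1, 93.9 and 68.6 FPKM in controls. Control hearts 1 and 4 again lay within the AAV-FGF17 range. Its log2 change was -0.20 (interval -0.55 to 0.14, limma adjusted p = 0.495), and -0.04 without control libraries 2 and 3. The thioesterases, which split acyl-CoA back to the free acid, lay above the median gene when all libraries were used. Acot2, of the mitochondrial matrix, was at 19.1, 19.8, 18.8 and 21.04 FPKM against 18.3, 15.5, 18.3 and 19.6 FPKM, with control heart 2 lowest and the groups overlapping. The log2 change of Acot2 was 0.25 (interval 0.02 to 0.48), its limma adjusted p was 0.562, and without control libraries 2 and 3 the change was 0.07. Acot13 was at 311.3, 320.9, 314.4 and 374.5 FPKM against 322.3, 284.8, 278.2 and 325 FPKM. Here control libraries 2 and 3 were the lowest, and the log2 change of 0.24 (interval -0.03 to 0.51, limma adjusted p = 0.621) was 0.05 without them. Acot1, a cytosolic enzyme close in sequence to Acot2, ran from 0.673 to 2.75 FPKM in AAV-FGF17 and from 0.810 to 2.11 FPKM in control hearts. Its log2 change was 0.30 (interval -0.28 to 0.89, limma adjusted p = 0.732) and turned to -0.13 without control libraries 2 and 3. Of the 75-base windows of Acot1, 26.0% also occur in transcripts of other genes and 19.4% in those of Acot2. Of the windows of Acot2, 20.5% occur in transcripts of Acot1, so the split of reads between Acot1 and Acot2 is uncertain.

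The carnitine shuttle lay near the median gene. Cpt1b, the muscle form of carnitine palmitoyltransferase 1 and the gate to mitochondrial import, was at 70.1, 64.5, 65.6 and 65.5 FPKM in AAV-FGF17 hearts and at 68.8, 79.9, 109.4 and 67.2 FPKM in controls. Only control hearts 2 and 3 exceeded the highest AAV-FGF17 heart. The log2 change was -0.14 (interval -0.49 to 0.20, limma adjusted p = 0.501) and -0.01 without control libraries 2 and 3. In annotation, 79.4% of the 75-base windows of Cpt1b are shared with other genes, chiefly the readthrough gene Gm44502, so its level is uncertain. Cpt1a, the liver form that the heart also expresses, ranged from 6.31 to 12.1 FPKM in AAV-FGF17 and from 9.75 to 11.3 FPKM in control hearts. Its FPKM was 0.0963 to 0.182 of that of Cpt1b in AAV-FGF17 hearts and 0.0980 to 0.168 in controls, with overlapping groups. Cpt2, the inner membrane transferase, was at 33.7, 31.9, 32.4 and 33.1 FPKM against 38.6, 43.6, 36.7 and 32.4 FPKM. Control heart 4 lay among the AAV-FGF17 hearts, and the log2 change was -0.07 (interval -0.32 to 0.17, limma adjusted p = 0.497) and -0.08 without control libraries 2 and 3. Crat, carnitine acetyltransferase, ran from 30.4 to 38.8 FPKM and from 30.5 to 44.4 FPKM.

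Malonyl-CoA, the inhibitor of carnitine palmitoyltransferase 1, is made at the mitochondrial surface by Acacb and removed by Mlycd. Acacb, acetyl-CoA carboxylase 2, read 14.9, 12.3, 15.1 and 9.63 FPKM in AAV-FGF17 hearts and 15.1, 23.0, 28.9 and 15.8 FPKM in control hearts. The groups did not overlap, but AAV-FGF17 heart 3 and control heart 1 had almost the same value. The means were 13.0 ± 2.57 and 20.7 ± 6.51 FPKM. The log2 change of -0.49 (interval -0.98 to -0.00, SE 0.22) had an unadjusted p of 0.0195 and an adjusted p of 0.495 in limma, and without control libraries 2 and 3 it was -0.23 with an interval from -0.64 to 0.17. Mlycd, malonyl-CoA decarboxylase, was at 11.1, 10.0, 9.72 and 10.6 FPKM against 9.54, 15.5, 22.9 and 9.19 FPKM. Control hearts 1 and 4 were below and control hearts 2 and 3 above all AAV-FGF17 hearts. Its log2 change was -0.22 (interval -0.77 to 0.33, limma adjusted p = 0.540) and turned to 0.15 without control libraries 2 and 3.

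**Figure D3:**
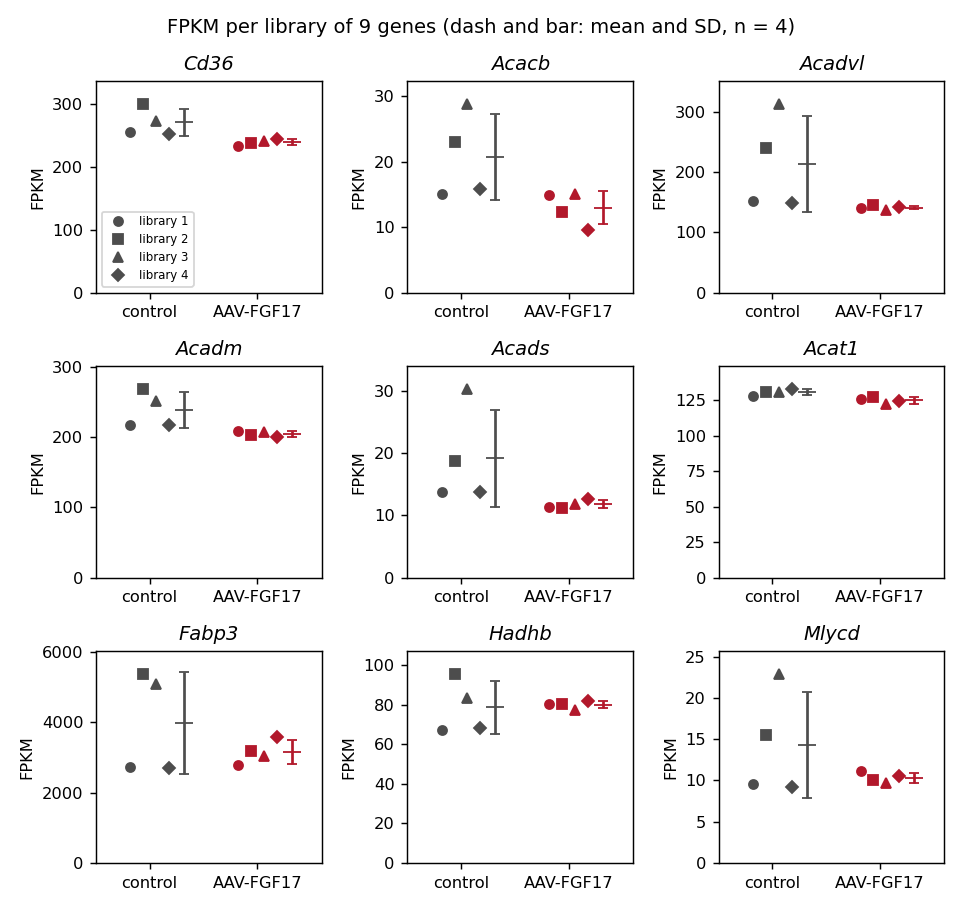
FPKM per library (marker shape: library number) of 9 members in control and AAV-FGF17 hearts, on axes that start at 0, with the mean and SD of each group (n = 4) beside the points. In Acadvl, Acads and Acacb the control mean lies between the pair of hearts 1 and 4, close to the AAV-FGF17 hearts, and the pair of hearts 2 and 3.

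The acyl-CoA dehydrogenases open each round of beta-oxidation and divide the work by chain length. Acadvl, the very long-chain enzyme, read 140.3, 145.6, 138.2 and 142 FPKM in AAV-FGF17 hearts and 151.6, 241, 314.1 and 149.5 FPKM in control hearts. The groups did not overlap, and control heart 3 was at over 2 times any AAV-FGF17 heart while control hearts 1 and 4 lay just above them. The means were 141.5 ± 3.13 and 214 ± 79.2 FPKM, and the log2 change was -0.40 (interval -0.91 to 0.10, limma adjusted p = 0.495), against -0.07 (interval -0.21 to 0.08) without control libraries 2 and 3. Acadl, the long-chain enzyme and the second most abundant member, was at 594.9, 631.4, 598.6 and 628.1 FPKM against 598.6, 698.7, 586.1 and 608.5 FPKM. The groups overlapped fully apart from control hearts 2 and 3 at the ends, with a log2 change of 0.10 (interval -0.17 to 0.36, limma adjusted p = 0.939) and 0.04 without those libraries.

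Acadm, the medium-chain dehydrogenase, was at 208, 203.3, 207.3 and 199.7 FPKM in AAV-FGF17 hearts and at 217.6, 268.6, 251.6 and 217.1 FPKM in control hearts. Every control heart was higher, control hearts 1 and 4 by a margin of a few percent. Its log2 change was -0.10 (interval -0.35 to 0.16, limma adjusted p = 0.496) and -0.07 without control libraries 2 and 3. Acads, the short-chain dehydrogenase, was at 11.4, 11.1, 11.9 and 12.6 FPKM against 13.8, 18.8, 30.3 and 13.8 FPKM, with means of 11.8 ± 0.654 and 19.2 ± 7.77 FPKM. The groups did not overlap under the deposited scale or after rescaling without mitochondrially encoded genes. The log2 change of Acads was -0.47 (interval -0.96 to 0.02, SE 0.22), with an unadjusted p of 0.0230 and an adjusted p of 0.495 in limma. Without control libraries 2 and 3 it was -0.20 with an interval from -0.40 to 0.01.

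The mitochondrial trifunctional protein joins hydratase and dehydrogenase activity in its alpha subunit, Hadha, to thiolase activity in its beta subunit, Hadhb, whose genes start head to head in the sequence shown above. Hadha stood at 88.9, 86.4, 85.0 and 74.3 FPKM in AAV-FGF17 hearts and at 83.7, 85.6, 115.6 and 84.8 FPKM in controls. Hadhb stood at 80.4, 80.2, 77.6 and 82.2 FPKM and at 67.5, 95.7, 83.7 and 68.3 FPKM. Control hearts 1 and 4 were below and control hearts 2 and 3 above every AAV-FGF17 heart in Hadhb. Its log2 change was 0.16 (interval -0.13 to 0.45, limma adjusted p = 0.894) and it was 0.26 without control libraries 2 and 3 (interval 0.10 to 0.41, limma adjusted p = 0.932). In those 6 libraries Hadhb was the only member higher at an unadjusted p under 0.05 in limma, against 2.24% of genes, and Acads the only one lower, against 2.39%. The ratio of Hadha to Hadhb ran from 0.904 to 1.11 in AAV-FGF17 and from 0.895 to 1.38 in control hearts. Of the 75-base windows of Hadhb, 51.0% also occur in another gene, chiefly Gm13910, which limits both readings.

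The remaining enzymes of the spiral overlapped between the groups. Echs1, the short-chain enoyl-CoA hydratase, was at 13.2, 15.03, 14.1 and 14.8 FPKM in AAV-FGF17 hearts and at 14.2, 22.0, 28.0 and 15.04 FPKM in controls, so control hearts 2 and 3 alone stood clear of the rest. Decr1, the reductase for unsaturated chains, was at 94.4, 92.9, 91.1 and 88.4 FPKM against 91.7, 138.1, 118.8 and 90.3 FPKM, with the same split. Acaa2, the thiolase of the matrix, was at 256.3, 244.7, 224.5 and 217.2 FPKM against 240.9, 324.2, 370 and 251.5 FPKM. Hadh, Eci1 and Eci2, a dehydrogenase and a pair of isomerases, also had their highest values in control hearts 2 and 3. Across the 12 beta-oxidation genes the AAV-FGF17 hearts varied less among themselves than the controls in 12 of 12, with coefficients of variation of 1.89% to 7.69% against 8.23% to 40.5%. Over all tested members the AAV-FGF17 spread was the smaller in 30 of 38. The share of all tested genes with a smaller AAV-FGF17 spread was not counted, so these counts are not read as a trait of the members. Without control libraries 2 and 3 the median log2 change of the beta-oxidation genes moved from -0.06 to 0.02.

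The electron transfer flavoprotein passes electrons from the dehydrogenases to the respiratory chain. Etfa, its alpha subunit, was at 186.9, 185.8, 179.8 and 192.1 FPKM in AAV-FGF17 hearts and at 182.4, 180.3, 186.4 and 172.5 FPKM in controls. In FPKM Etfa was among the steadiest members, with no separation of control libraries 2 and 3. Its log2 change was 0.16 (interval -0.05 to 0.38, limma adjusted p = 0.832) and 0.09 without those libraries. After rescaling without mitochondrially encoded genes, control hearts 2 and 3 were at 154.1 and 141.5, against 187.1 to 208.9 in the other hearts. The log2 change of Etfa was then 0.20. Etfb, the beta subunit, was at 140.1, 150.7, 140 and 152.9 FPKM against 157, 170.5, 238.9 and 115.8 FPKM. Control hearts 3 and 4 were its highest and lowest values, and its log2 change turned from -0.06 (interval -0.49 to 0.37, limma adjusted p = 0.660) to 0.13 without control libraries 2 and 3. Of its 75-base windows, 52.5% are shared, chiefly with Gm45233. Etfdh, the oxidoreductase that hands the electrons to ubiquinone, was at 69.8, 69.9, 69.4 and 68.1 FPKM against 69.2, 89.9, 77.1 and 71.5 FPKM. Its coefficient of variation over the AAV-FGF17 hearts, 1.16%, was the smallest of any tested member, and its log2 change was -0.02 (interval -0.27 to 0.22, limma adjusted p = 0.553) and -0.00 without control libraries 2 and 3, and it was 0.01 after rescaling without mitochondrially encoded genes.

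The 3 lipolysis genes lay below the median gene with all libraries, and 2 of the 3 without control libraries 2 and 3. Pnpla2, adipose triglyceride lipase, which opens the breakdown of stored triglyceride, was at 43.5, 37.4, 38.97 and 38.3 FPKM in AAV-FGF17 hearts and at 43.1, 44.2, 66.0 and 40.7 FPKM in controls. AAV-FGF17 heart 1 lay among the controls, and the log2 change was -0.15 (interval -0.49 to 0.20, limma adjusted p = 0.499) and -0.06 without control libraries 2 and 3. Lipe, hormone-sensitive lipase, was at 3.78, 3.85, 4.47 and 2.80 FPKM against 4.51, 4.33, 5.70 and 4.29 FPKM. AAV-FGF17 heart 3 overlapped the controls. Its log2 change of -0.16 (interval -0.48 to 0.16, limma adjusted p = 0.495) was -0.18 without control libraries 2 and 3. Plin5, the droplet protein that holds lipid stores close to mitochondria, ran from 18.75 to 22.7 FPKM in AAV-FGF17 hearts and was at 19.6, 30.1, 46.7 and 18.71 FPKM in controls. Its direction turned, from a log2 change of -0.27 (interval -0.83 to 0.30, limma adjusted p = 0.520) to 0.10 without control libraries 2 and 3.

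Ketone bodies enter oxidation through Bdh1, Oxct1 and Acat1. Acat1, the mitochondrial acetoacetyl-CoA thiolase, was at 125.5, 127.3, 121.8 and 124.1 FPKM in AAV-FGF17 hearts and at 128, 130.6, 130.7 and 132.8 FPKM in controls. In FPKM Acat1 had the smallest control spread of any tested member, and the groups did not overlap. After rescaling without mitochondrially encoded genes, control hearts 2 and 3 were at 111.6 and 99.2, below every other heart. Against the median gene, itself shifted down, the log2 change of Acat1 was 0.05 (interval -0.15 to 0.26, limma adjusted p = 0.734), and -0.04 without control libraries 2 and 3. Oxct1, the transferase that commits ketone bodies to oxidation, was at 275.3, 301.9, 286.9 and 304.1 FPKM against 288, 446.1, 381.6 and 294.3 FPKM. Control hearts 1 and 4 lay inside the AAV-FGF17 range, and the log2 change was -0.13 (interval -0.48 to 0.22, limma adjusted p = 0.513) and 0.02 without control libraries 2 and 3. Bdh1, the dehydrogenase of beta-hydroxybutyrate, was at 10.6, 13.5, 21.5 and 33.3 FPKM in AAV-FGF17 hearts, while the controls stayed between 17.5 and 19.8 FPKM. Pdk4, the kinase that shuts pyruvate out of oxidation, was at 92.1, 52.8, 85.2 and 130.8 FPKM against 83.1, 115.1, 60.7 and 81.3 FPKM. Both groups spread widely, and its log2 change was 0.17 (interval -0.44 to 0.77, limma adjusted p = 0.935) and 0.08 without control libraries 2 and 3.

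As a whole the set took a similar share of the nuclear transcripts in both groups. The members' summed FPKM was 6749, 7176, 6984 and 7763 in AAV-FGF17 hearts and 6788, 10299, 10196 and 6727 in control hearts. As a share of the FPKM of genes not encoded by the mitochondrial genome it was 4.23%, 4.66%, 4.25% and 4.60% against 4.24%, 5.09%, 4.47% and 4.22%. The gap of control hearts 2 and 3 from the rest was much smaller on this share than on the sums. Without Fabp3 the shares were 2.49%, 2.60%, 2.41% and 2.47% against 2.53%, 2.44%, 2.24% and 2.52%, and control heart 3 was then the lowest. Control libraries 2 and 3 were both higher than the other 6 in 25 of 39 members, against 36.0% of tested genes, and in 7 members, against 10.9%, after rescaling without mitochondrially encoded genes. They were both lower in 2 members, against 6.76%, and after that rescaling in 8, against 26.6%.

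**Figure D4:**
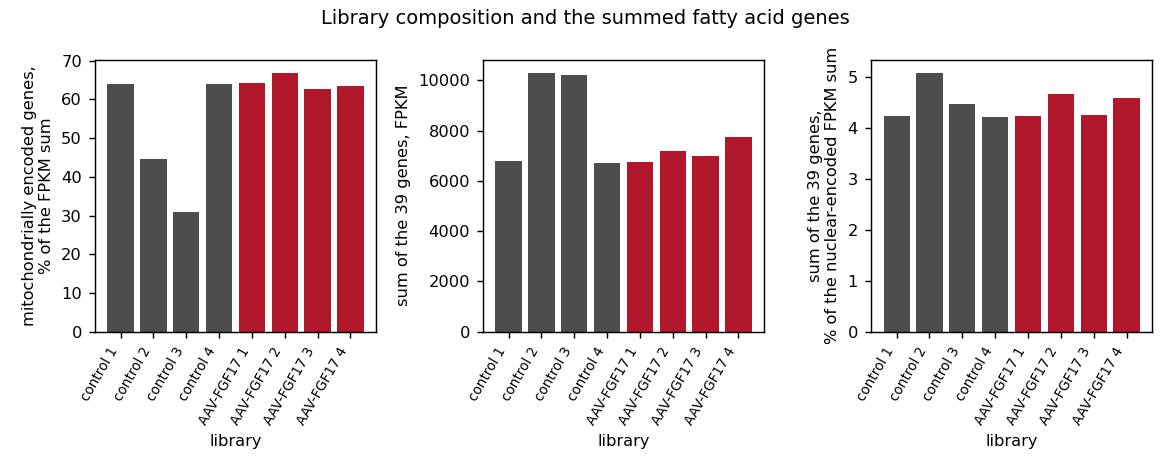
Bars give, for each library, the percentage of the FPKM sum held by mitochondrially encoded genes, the members' summed FPKM, and that sum as a percentage of the nuclear-encoded FPKM. The first panel is low and the second high in control libraries 2 and 3, and the last runs from 4.23% to 4.66% in AAV-FGF17 hearts and from 4.22% to 5.09% in control hearts.

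Beyond the 39, a list of other genes of fatty acid handling held 69 genes, of which 67 were listed and 63 tested. With limma 0 of the 63 had an adjusted p under 0.05, 1 was higher and 7 lower at an unadjusted p under 0.05, against 1.36% and 7.98% of all genes, and 31 lay above and 32 below the median gene. The groups did not overlap in 6 of them, all lower, against 4.64% of all genes: Dbi, Acsl6, Fitm2, Lpin1, Ppara and Pparg. Ppara, the gene of PPAR-alpha itself, was at 3.93, 3.499, 4.03 and 2.03 FPKM in AAV-FGF17 hearts and at 5.18, 4.67, 7.44 and 4.43 FPKM in controls. Its log2 change was -0.44 (interval -0.89 to -0.00) with all libraries and -0.41 (interval -0.91 to 0.09) without control libraries 2 and 3. The size of the change thus moved little, while the second interval includes 0. Lpin1, a phosphatidate phosphatase that also acts as a coactivator of PPAR-alpha, was at 9.34, 5.29, 11.3 and 12.4 FPKM against 13.9, 18.8, 15.8 and 14.2 FPKM, with log2 changes of -0.59 and -0.54. Dbi, the acyl-CoA-binding protein, was at 43.9, 42.6, 47.6 and 45.1 FPKM against 49.6, 76.2, 103 and 53.2 FPKM, and its log2 change of -0.46 was -0.17 without those libraries. Other genes with the smallest p of their lists were Acsl6 at -0.16, Fitm2 at -0.32, Mecr at -0.16, Dgat1 at -0.36 and Hsd17b4, a peroxisomal enzyme, at -0.31. Without control libraries 2 and 3, these log2 changes were -0.16, -0.12, -0.25, -0.03 and 0.00 in the same order. The limma adjusted p of these named genes lay between 0.495 and 0.496.

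Some members are also expressed by fat cells and endothelium, whose markers are given beside them. Of 9 white fat cell markers, 8 were listed and 7 tested, and 7 of 7 lay below the median gene. Their summed FPKM was 67.9, 69.7, 209 and 51.5 in AAV-FGF17 hearts and 177, 147, 354 and 180 in controls. The range was 51.5 to 209 against 147 to 354, so the groups overlapped through AAV-FGF17 heart 3. Cfd, the adipocyte factor adipsin, was at 44.7 ± 34.4 FPKM in AAV-FGF17 and 109.5 ± 68.4 FPKM in control hearts. The median log2 change of the white fat markers was -0.89 with all libraries and -0.89 without control libraries 2 and 3. Brown fat markers summed to 256 to 324 FPKM against 281 to 417 FPKM, most of it Cox8b, a muscle-type cytochrome oxidase subunit, at 241 ± 27.5 and 270.5 ± 56.6 FPKM. In 2 of the 3 brown fat markers tested every AAV-FGF17 heart lay below every control heart, against 4.64% of all tested genes. The same held in 1 of 7 white fat and 3 of 9 endothelial markers, and in 0 atrial, ventricular or macrophage markers. Ucp1, the uncoupling protein of brown fat, singled out after its values were seen, was lower at 5.25 ± 3.39 against 13.6 ± 1.87 FPKM, and Cidea, a lipid droplet protein, at 32.5 ± 4.94 against 53.5 ± 13.6 FPKM. The median of the 3 was -0.56 with all libraries and -0.34 without control libraries 2 and 3. Endothelial markers summed to 118 to 155 FPKM against 157 to 211 FPKM, so these sums did not overlap, with 2 of 9 markers above and 7 below the median gene. Relative to the median gene their median log2 change was -0.23 with all libraries and -0.02 without control libraries 2 and 3. Cdh5, an endothelial cadherin, was at 43.6 ± 5.26 and 56.0 ± 8.31 FPKM, and Pecam1, a surface protein of endothelium, at 25.3 ± 3.68 and 32.02 ± 1.11 FPKM. Atrial muscle markers summed to 563 to 1882 FPKM against 1389 to 3038 FPKM, so these sums overlapped. Their median log2 change was -0.83 with all libraries and -0.97 without control libraries 2 and 3, and 0 of 5 exceeded the median gene. A lower median that held without these libraries was thus not confined to fat cell markers. Macrophage markers summed to 119 to 197 FPKM against 141 to 214 FPKM, with medians of 0.12 and 0.15 in the same order. Ventricular muscle markers summed to 8323 to 9002 FPKM against 8239 to 18875 FPKM, with medians of -0.29 and 0.05. No marker listed was at 0 in any library, and the part of fat or endothelial cells in the values of Lipe, Fabp4, Gpihbp1, Lpl or Cd36 was not tested.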

How the data were processed

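RNA sequencing values of 8 mouse hearts were used, 4 per group, grouped by the sample titles. RNA was extracted with Trizol, per the labels' protocols. FastQC 0.11.7, cutadapt 1.17, HISAT2 2.1.0, StringTie 1.3.3 and GRCm38 are named in the submitters' processing notes, with no settings. Per the file headers, the deposited values are FPKM, with 1 value per gene in each library. FPKM divides by the mapped total, so a library with fewer mitochondrial transcripts reads higher elsewhere. The table lists 11704 genes and 1 empty line, and 0 value columns were left unassigned. The larger group mean was at least 0.501 FPKM in every listed gene. Depth is unknown: whole-read steps were sought in 1135 genes with 1 transcript and found in 0 of 8 libraries, so no count test was run and the spread between hearts sets the precision.

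Genes averaging at least 1 FPKM were tested on log2(FPKM + 1). The tool was limma (version 3.58.1, R 4.3.3) with the variance trended on the mean, no covariate and Benjamini-Hochberg adjustment over 10025 genes at 0.05, after a check on simulated data. That scale understates changes of low genes. The labels do not say that the hearts are separate animals, so the p-values reflect the spread among these samples only, which may be technical. The members and lists were chosen with earlier results of these data known. Named with full statistics are 20 members that a fixed rule picked within each step by smallest limma p and highest abundance, and Cd36, Acadm, Hadhb, Mlycd, Acot1 and Plin5, chosen after their values were seen. The pathway genes named with a change came from the same rule, and 1 gene that it picks is not reported here. Alternatives covered the pseudocount, the filter, scaling, weights, the trend, a replicate block and left-out libraries. Gene IDs were matched to GENCODE M21, with 11689 of 11704 found, and shared 75-base windows were counted over its transcripts. Promoter windows are from RefSeq, GRCm38.p6, and coordinates are 1-based.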

Additional observations from a re-analysis of the deposited data

Results flagged for a closer look

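In 90 groups of 4 hearts, a member's FPKM or a ratio of members, 6 held a value far from the other 3 by Dixon's test at its 95% limit, where chance gives about 1 in 20, or 4.5. Of these values 4 belonged to control heart 3, which was also the library with the lowest mitochondrial share: Hadha at 115.6 FPKM, Pnpla2 at 66.0 FPKM, Lipe at 5.70 FPKM and Bdh1 at 19.8 FPKM. In AAV-FGF17 heart 4, Acot13 stood at 374.5 FPKM against 311.3 to 320.9 FPKM in the other 3, and the ratio of Hadha to Hadhb was 0.904 against 1.08 to 1.11.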

How the results depend on the processing

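Over 18 alternatives no member passed an adjusted p under 0.05 in limma, and the direction held in 622 of 641 values of 36 genes (26 members and 10 pathway genes), with 26 genes never reversed. Leaving out control libraries 2 and 3 turned Acat1 to -0.0426, Etfb to 0.133, Fabp3 to 0.223, Oxct1 to 0.0246, Hsd17b4 to 0.0024, Mlycd to 0.15, Acot1 to -0.127 and Plin5 to 0.101. It brought the member median to 0.0035, the genes called to 5 higher and 1 lower, members at an unadjusted p under 0.05 to 1 higher and 1 lower, and members lying wholly higher to 3. Array quality weights turned Acat1 to -0.0366, Etfb to 0.0836, Fabp3 to 0.10, Mlycd to 0.0836 and Plin5 to 0.0072, with 4 genes called higher and 1 lower, and 1 member lower at an unadjusted p under 0.05. Median-of-ratios scaling turned Etfdh to 0.0035 and left 2 members wholly lower, and scaling without mitochondrially encoded genes turned Etfdh to 0.0147 and left 2 wholly lower, 1 wholly higher and 1 higher at an unadjusted p under 0.05. Treating control libraries 1 and 4 as 1 sample, an alternative chosen after seeing the data, gave 7 members lower at an unadjusted p under 0.05. The median of all genes then stood at -0.15. Except where given above, shares of all genes under these alternatives were not counted, so such member counts have no background. For these values the cause was not tested.

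Leaving out each library in turn gave 0 to 1 genes called higher, 0 to 3 lower, 1 to 9 members lower at an unadjusted p under 0.05, 0 to 1 members wholly higher and 6 to 9 wholly lower. The shares of all genes in these fits were not counted, so the member counts have no background and are not a result about the members. The log2 change then ran from -0.20 to 0.0760 in Etfb (highest without control replicate 3), from -0.0615 to 0.0318 in Etfdh (highest without control replicate 2) and from -0.0347 to 0.366 in Pdk4 (lowest without AAV-FGF17 replicate 4, -0.02 without control replicate 3).

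Replicate numbers did not pair the samples: the correlation of same-numbered deviations was 0.013, 0.0043, 0.022 and -0.109. With the replicate number as a block, 0 members were called, 3 were lower at an unadjusted p under 0.05 (share of all genes not counted), and the member median was -0.09. The unknown depth and 4 hearts per group limit all values.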

Other observations

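Acadsb, the dehydrogenase of short branched chains, split the control hearts another way. It was at 31.8, 30.3, 32.6 and 27.7 FPKM in AAV-FGF17 hearts and at 32.2, 27.2, 11.0 and 11.6 FPKM in control hearts 1 to 4. Control hearts 3 and 4 were low, although control heart 4 resembled control heart 1 in most members. The log2 change of Acadsb relative to the median gene was 0.82 with all libraries (interval 0.12 to 1.53). In limma its unadjusted p was 0.0499 and its adjusted p 0.495. Without control libraries 2 and 3 the change was 0.65 (interval -0.12 to 1.42). Acadsb is the 1 gene counted above as higher among the other genes of fatty acid handling.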
